A study of Mus musculus with 4 samples.

Results

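Cd209a conventional dendritic cells of mouse skin wounds were described here as the cells that carry Cd209a together with high levels of MHC class II. They were chosen by raw counts of unique molecular identifiers (UMIs, 1 per captured transcript) in each cell: at least 2 UMIs of Cd209a, at least 10 of H2-Aa, none of Ccr7, Hdc or Xcr1, and fewer than 3 of C1qa, C1qb and C1qc together. The rule found 142 cells among the 19827 cells that held at least 200 genes and at most 10% mitochondrial UMIs, which is 0.716% of them. The cells came from 3 mm excisional wounds on the back skin of 8-week-old mice that were wild type (Angptl4+/+) or lacked both copies of Angptl4 (Angptl4-/-). The labels give the strain C57BL6/J for both genotypes, and the methods name it for the wild type alone. Wounds were collected 1 or 5 days post wounding (dpw), and live CD45+ cells, which are cells of the blood lineage, were sorted and sequenced from the 3′ end of their transcripts in droplets. Each genotype and day had 1 library, the number of mice behind it was not given in the sources used here, and the wild-type mice were bought from a supplier while the knockout mice came from a mutant repository. No difference could therefore be tested. The intervals given here are 95% intervals that cover counting error only, and the spread between animals is unknown.

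Conventional dendritic cells take up antigen in tissues, present it on MHC class II and carry it to lymph nodes. They arise under the growth factor receptor Flt3, and the type 2 conventional dendritic cell of mouse skin is known for the C-type lectins Cd209a (a DC-SIGN homologue), Mgl2 and Clec10a. In inflamed skin, monocytes that enter from blood through Ccr2 can also take on MHC class II and lectins, and Fcgr1, the high-affinity IgG receptor CD64, and Lyz2, lysozyme, are commonly used to recognise cells of that origin. Mature dendritic cells ready to leave the tissue carry Ccr7, cross-presenting type 1 cells carry Xcr1, macrophages carry C1q, and Hdc marks neutrophils, mast cells and basophils here, which is why the rule left them out.

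The deposited libraries held 32962595 UMIs (Angptl4+/+, 1 dpw), 29746688 (Angptl4+/+, 5 dpw), 27472052 (Angptl4-/-, 1 dpw) and 26981596 (Angptl4-/-, 5 dpw). Of the Cd209a cells 10 were from Angptl4+/+ and 10 from Angptl4-/- wounds of 1 dpw, and 66 and 56 from those of 5 dpw. In the order Angptl4+/+ 1 dpw, Angptl4+/+ 5 dpw, Angptl4-/- 1 dpw and Angptl4-/- 5 dpw, which every list of 4 values follows, they carried 154947, 933568, 154537 and 856849 UMIs, so that levels at 1 dpw rest on far fewer UMIs than levels at 5 dpw. The median cell held 14255, 13849.5, 15005 and 13907 UMIs. Between 4 and 15 cell barcodes were shared by any pair of libraries, and 1 of these shared barcodes belonged to a Cd209a cell. Angptl4 itself had 47 and 78 UMIs over all passing cells of the Angptl4+/+ libraries at 1 and 5 dpw and 0 in both Angptl4-/- libraries, which matches the labels. It had 0 UMIs in the Cd209a cells of all 4 libraries. The sex of the mice did not match the methods, which name male animals. Xist, the RNA of the inactive X chromosome of females, was seen in 100%, 100%, 100% and 96.4% of the Cd209a cells, and the Y-linked genes Ddx3y, Eif2s3y, Kdm5d and Uty summed to 0, 0, 0 and 3 UMIs over all passing cells. The libraries did not differ in this respect.

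The share of Cd209a cells was larger at 5 dpw than at 1 dpw in both genotypes. In Angptl4+/+ wounds it was 0.187% of 5346 passing cells at 1 dpw (Clopper-Pearson interval, 0.0897 to 0.344%) and 1.33% of 4945 at 5 dpw (1.03 to 1.69%). In Angptl4-/- wounds it was 0.208% of 4798 (0.1 to 0.383%) and 1.18% of 4738 (0.894 to 1.53%). The 5 dpw share was thus 7.14-fold the 1 dpw share in Angptl4+/+ wounds (3.65 to 15.6) and 5.67-fold in Angptl4-/- wounds (2.87 to 12.5), beyond counting error in both. Between genotypes the shares differed by 0.0214 percentage points at 1 dpw (Newcombe interval, -0.162 to 0.216) and by -0.153 at 5 dpw (-0.603 to 0.298), Angptl4-/- minus Angptl4+/+, and both intervals include 0. A neutrophil class was taken as the cells with at least 2 UMIs of Csf3r, at least 20 of S100a8 and S100a9 together and fewer than 3 of H2-Aa. It held 44.3%, 35.0%, 47.1% and 49.5% of the passing cells, and these thresholds can leave out neutrophils, so its share is not a count of all of them. Among the cells outside it the Cd209a shares were 0.336%, 2.05%, 0.394% and 2.34%, and the 5 dpw value was 6.12-fold and 5.94-fold that at 1 dpw. A wider class of cells with at least 1 UMI of Csf3r and fewer than 3 of H2-Aa held 62.5%, 50.5%, 65.4% and 64.5%. Outside it the shares were 0.499%, 2.70%, 0.602% and 3.33%, the ratios between days were 5.41-fold and 5.53-fold, and the Angptl4-/- share at 5 dpw was above the Angptl4+/+ share by 0.634 points, so the levels and the sign of the genotype difference at 5 dpw depend on the cells counted. With cells thinned to 2000 UMIs, shallower cells left out and the rule's minimum counts lowered, the shares were 0.0987%, 1.22%, 0.0891% and 0.916%, from 5, 54, 4 and 40 cells, and the ratios between days were larger, at 12.3-fold and 10.3-fold.

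**Figure D1:**
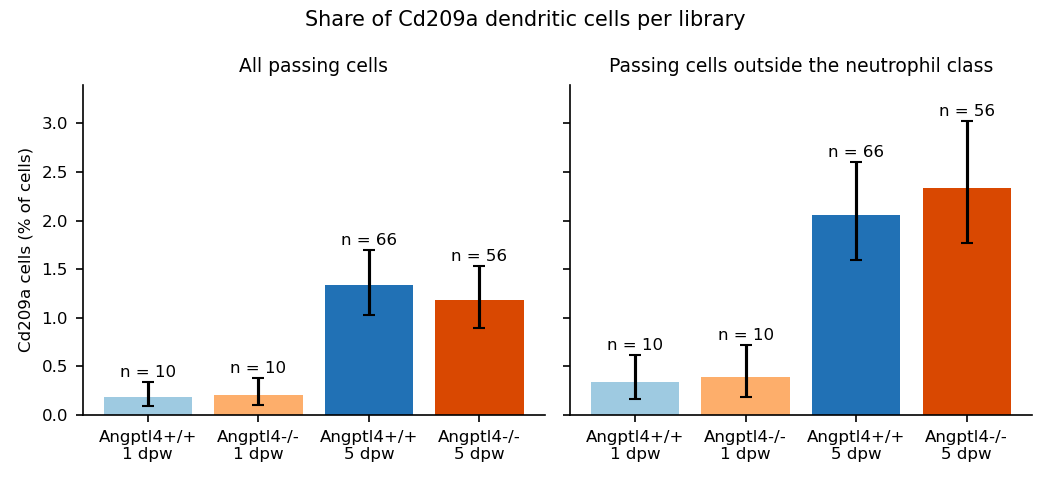
Cd209a cells as a percent of all passing cells (left) and of passing cells outside the neutrophil class (right) in each library, with bars for the share, whiskers for the 95% Clopper-Pearson interval and the number of Cd209a cells above. Both 5 dpw libraries lie above both 1 dpw libraries, at 1.33% and 1.18% against 0.187% and 0.208% on the left, and the intervals of the genotypes overlap at each day.

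Cd209a and H2-Aa chose the cells and are given as a description. Cd209a (chr8:3743397-3748984, minus strand, GRCm38) had a median of 11.5, 7.5, 7 and 6 UMIs a cell, and single cells ranged from 2 to 55. H2-Aa (chr17:34282744-34287823, minus strand) had medians of 130, 142.5, 78.5 and 164.5 UMIs. Just inside the Cd209a threshold were 20 cells with exactly 2 UMIs, and just outside it were 20 cells with 1 UMI that met every other criterion. The other criteria removed few cells. Without the limit on Ccr7, Hdc, Xcr1 or C1q the set would have gained 8, 18, 2 or 11 cells. The H2-Aa minimum left out 21 cells. In the neutrophil class, which should lack it, Cd209a had a UMI in at most 0.0578% of cells, at median depths of 3347 to 5278.5 UMIs.

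The markers of the label were present. Levels are given as CPM, the UMIs of a gene divided by all UMIs of the Cd209a cells of that library, times 1000000. Flt3 (chr5:147330741-147400489, minus strand) stood at 129, 96.4, 168 and 107 CPM and was seen in 80%, 62.1%, 80% and 75% of the cells, against at most 0.404% of the cells of the neutrophil class. Cd74, the invariant chain of MHC class II, stood at 17961, 19895, 15116 and 19824 CPM and was seen in every cell of all 4 libraries. Of the other genes of the conventional dendritic cell, Kmo was seen in 64.3 to 80% of cells, the peptidase Dpp4 in 76.8 to 80%, and the transcription factor Zbtb46, usually held to define the lineage, in 20 to 40%. Some type 2 genes were likewise common, with Sirpa in 80 to 92.4% of cells, Clec10a in 70 to 90% and Itgam in 66.7 to 90%. Mgl2 was less so, in 5 of 10, 32 of 66, 2 of 10 and 27 of 56 cells. The 17 genes of the type 2 list summed to 7564, 7708, 7700 and 6658 CPM, with 3, 0, 4 and 1 of them at 0. Ifitm1 alone gave 4298, 3410, 4051 and 3206 CPM of these sums. Irf4, a transcription factor of this type, was seen in 30 to 40%.

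The same cells carried genes of monocytes. Ccr2 stood at 826, 766, 1501 and 813 CPM in 92.4 to 100% of cells. Csf1r was seen in 70 to 90% of cells and Fcgr1 in 70%, 54.5%, 60% and 58.9%, where the neutrophil class, sequenced to less depth, had Fcgr1 in 2.56 to 4.48%. Flt3 and Fcgr1 were found together in 59 of the 142 cells. Fcgr1 was seen in 59.6% of the cells with Flt3 and in 53.5% of those without it. Lyz2 was seen in 62.5 to 90% of cells, but a single cell gave 23.8 to 34.6% of its UMIs in each library, so that its summed levels of 839, 1299, 1055 and 2369 CPM rest on few cells. The 14 genes of the monocyte list summed to 4150, 3246, 4957 and 4205 CPM with Plac8 the most abundant, at 1801, 1138, 1935 and 1144 CPM, and 1 to 4 of them were at 0 in a library. Markers of other sorted leukocytes were present to different degrees, and their part in the results was not tested. The 17 genes of the macrophage list summed to 878, 707, 770 and 868 CPM, with 8, 2, 10 and 4 of them at 0. Cd68 was the most abundant of them in 3 libraries, at 329, 232 and 249 CPM, and Cd14 in the Angptl4-/- library at 1 dpw, at 291 CPM. The 12 neutrophil genes summed to 936, 326, 466 and 413 CPM, of which Il1r2 gave 568, 202, 123 and 243, while the neutrophil surface marker Ly6g was at 0, 0, 6.47 and 1.17 CPM. The 7 B cell genes summed to 123, 129, 162 and 153 CPM, nearly all of it from the immunoglobulin gene Ighm at 116, 120, 149 and 142, and the B cell markers Cd79a and Ms4a1 were at 0 in all 4 libraries. The 12 genes of T, NK and innate lymphoid cells summed to at most 47.8 CPM, and 8 or 9 of 9 mast cell and basophil genes were at 0 in each library. Whether a given cell came from a monocyte or from a dendritic cell precursor cannot be told from these counts, and the set is therefore called by its rule, Cd209a cells.

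A small part of the set carried genes of plasmacytoid dendritic cells, which are interferon-producing cells that share Flt3 with the conventional lineage. Siglech, Ccr9, Cox6a2 and Ly6d are markers of that lineage, and 10 of the 142 cells held at least 2 of these 4 genes. None of these cells was from 1 dpw, 4 were from Angptl4+/+ wounds (6.06% of the cells there, 1.68 to 14.8%) and 6 from Angptl4-/- wounds at 5 dpw (10.7%, 4.03 to 21.9%), and these intervals overlap. This selection was made after the values were seen. The 10 cells passed the rule with little to spare, with a median of 2.5 UMIs of Cd209a and 25 of H2-Aa against 8 and 154.5 in the other 132. Summed together, the 10 cells were set apart by genes that did not choose them. Irf8 and Tcf4, transcription factors of the plasmacytoid lineage, stood at 2551 and 1645 CPM in them and at 81.0 and 187 CPM in the others, Bst2 at 4020 and 314, Runx2 at 570 and 27.3, and Spib at 209 and 4.05. Fcgr1 had 0 UMIs in the 10 cells and was seen in 62.1% of the others, Lyz2 had 1 UMI in all 10, and the monocyte marker Ly6c2 was high in them, at 1797 against 116 CPM. Without them the shares at 5 dpw were 1.25% and 1.06%. Counts of genes past 2-fold are given below with and without them, and so are the named ratios that moved by over 1.5-fold when they were left out.

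Against other cells of the same wounds the Cd209a cells were compared within each library, and a gene was counted where it was past 2-fold in the same direction in all 4 libraries, among genes with at least 50 UMIs, leaving out the genes that define either class. Since the classes were cut by gene counts these are descriptions. Cells with at least 10 C1q and 10 H2-Aa UMIs, the macrophage-like neighbours, numbered 17, 320, 28 and 189. Against them 150 of 8745 genes were higher in Cd209a cells (1.72%) and 253 lower (2.89%). Flt3 stood at 129, 96.4, 168 and 107 CPM against 4.10, 1.58, 0 and 3.08, and 6 of 11 measured genes of the conventional dendritic cell list were higher (Kmo, Dpp4, Flt3, Jaml, Ciita and Btla) and none lower, and 12 of 16 macrophage genes were lower, among them Apoe, Pf4, Spp1, Mrc1 and Adgre1. Klrd1, the CD94 chain of a C-type lectin-like receptor best known from NK cells, led the list of higher genes at 678, 629, 324 and 195 CPM against 0, 4.73, 0 and 0. Of the lysosomal proteases and cystatins 9 of 16 were lower, Ctsb, Ctsd and Ctsl among them, while Cst7 was higher. Of the Fc and complement receptors 5 of 10 were lower (Fcgr1, Fcgr3, Fcgr4, C3ar1 and C5ar1) and none higher.

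Mature dendritic cells, cut as cells with at least 2 UMIs each of Ccr7 and Fscn1 and at least 10 of H2-Aa, numbered 29, 98, 19 and 45. Of the 4 classes compared they had the most genes past 2-fold, with 686 of 7053 genes higher in Cd209a cells (9.73%) and 402 lower (5.7%). All 14 measured genes of the mature list were lower in Cd209a cells, which the exclusion of Ccr7 from the rule favours. Ccl22, a chemokine of mature cells, stood at 0, 4.28, 6.47 and 7 CPM against 1191, 2089, 1888 and 1784. In the other direction 9 of 13 C-type lectins were higher, with Clec10a at 252, 408, 324 and 518 CPM against 11.7, 2.24, 0 and 0, and so were 8 of 10 monocyte genes and 6 of 7 Fc and complement receptors. Of 15 MHC class II genes 4 were higher (March1, Ciita, H2-DMa and H2-DMb1) and 1 lower (H2-Eb2), while 8 of 16 MHC class I genes were lower and none higher. Flt3 was not past 2-fold the same way in all libraries, at 277, 164, 296 and 191 CPM in the mature cells.

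Monocytes of the wounds, cut as cells with at least 3 UMIs each of Ly6c2 and Plac8 and fewer than 10 of H2-Aa, numbered 284, 201, 202 and 159. Against them 181 of 9038 genes were higher (2%) and 223 lower (2.47%). Of the 15 measured MHC class II genes 9 were higher and 1, Lgmn, lower, and H2-Eb1 stood at 6228, 8353, 5526 and 8239 CPM against 9.32, 46.6, 14.8 and 51.4. The classes are parted by H2-Aa, itself a class II gene, and the part of that threshold in this count was not tested. Of 11 genes of the conventional dendritic cell list 8 were higher. Chil3, a monocyte gene that encodes a chitinase-like protein, had 0 UMIs in all 142 Cd209a cells and stood at 1683, 1270, 1882 and 1867 CPM in the monocytes, and F13a1, Vcan and Fcgr1 were the other monocyte genes that were lower. Of 19 genes of glycolysis and hypoxia 5 were lower (Hilpda, Bnip3, Ero1l, Egln3 and Vegfa) and none higher.

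The closest class was made of cells that met every criterion but had no Cd209a UMI, 56, 226, 46 and 137 cells. Here 46 of 8350 genes were higher in Cd209a cells (0.551%) and 137 lower (1.64%). The related lectin gene Cd209d (chr8:3871824-3878555, minus strand), which the rule did not use, stood at 96.8, 204, 104 and 292 CPM against 0, 2.09, 0 and 15 CPM, and a single cell gave 93.3%, 43.7%, 56.2% and 17.6% of its UMIs. Mgl2, Clec10a, Clec4b1, Cd7, Ddr1, Tnfsf4 and Klrd1 were also higher, as were Flt3, Kmo and Dpp4. Lower were Apoe, at 6.45, 53.6, 6.47 and 103 CPM against 1681, 5074, 2295 and 4270, and 8 of 15 macrophage and 6 of 13 monocyte genes in all. These cells had medians of 10345.5 to 13866.5 UMIs a cell, against 13849.5 to 15005 in the Cd209a cells, and how many of them missed a Cd209a UMI through depth was not tested. Without the 10 cells with plasmacytoid genes 146 genes were higher and 252 lower against the C1q cells, 668 and 403 against the mature cells, 179 and 226 against the monocytes, and 45 and 135 against the cells without Cd209a.

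**Figure D2:**
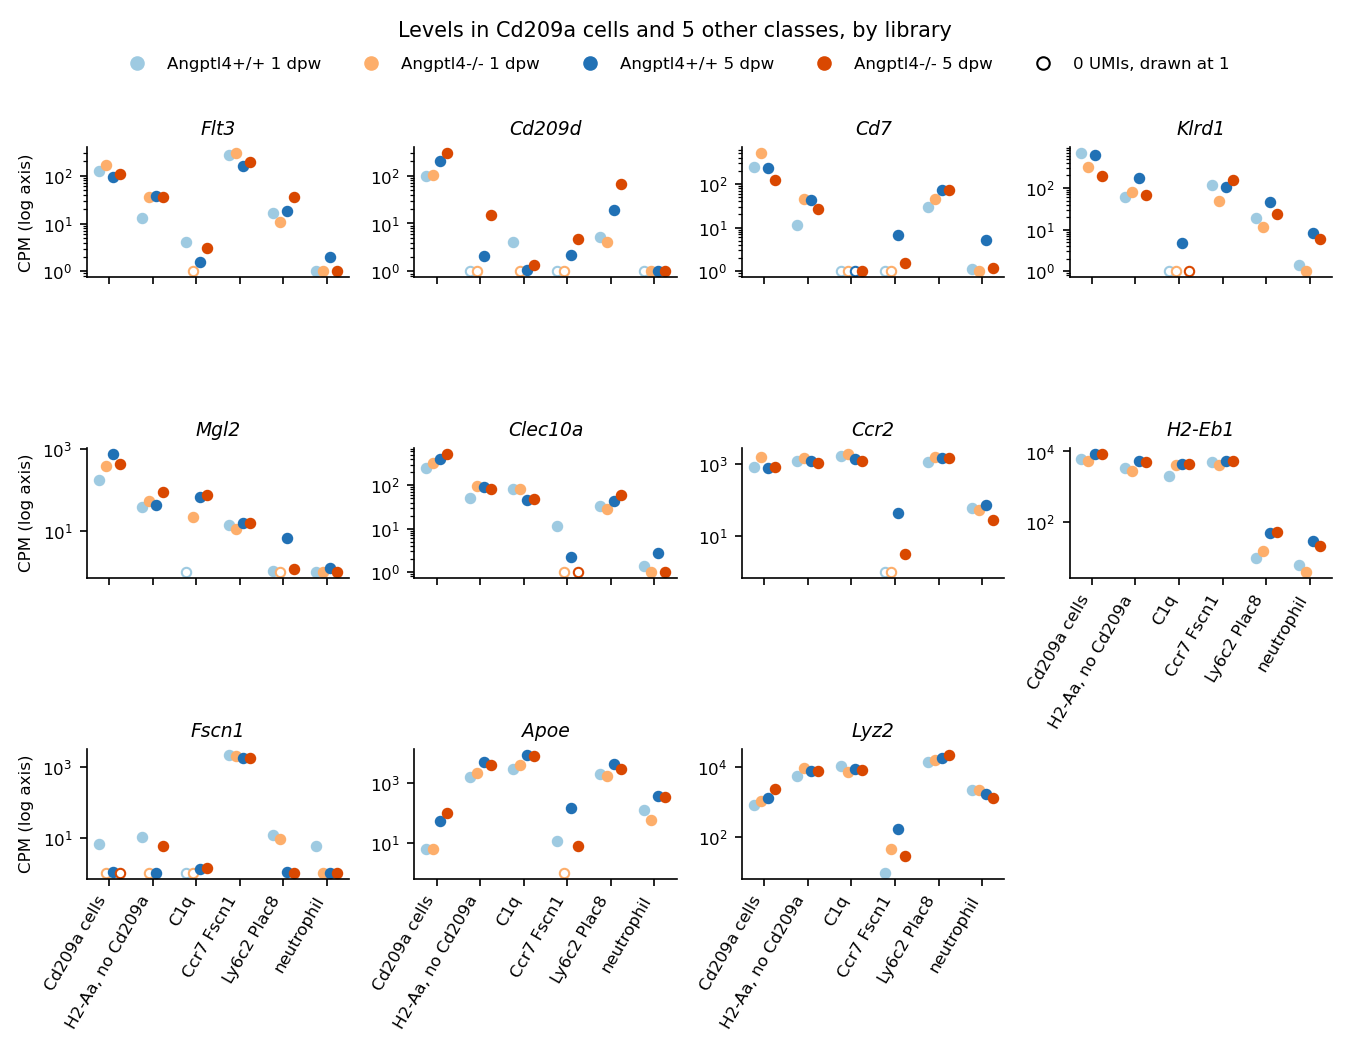
Levels of 11 genes (CPM, log axis) in Cd209a cells and 5 other classes, each point a library. Values under 1 CPM are drawn at 1, with open circles for 0 UMIs. Klrd1, Cd7, Cd209d and Clec10a have their highest levels in Cd209a cells, Flt3 is shared with the Ccr7 Fscn1 cells and H2-Eb1 with the 3 other classes chosen for H2-Aa, Fscn1 sits in the cells chosen by it, and Apoe and Lyz2 are higher in the C1q, Ly6c2 Plac8 and H2-Aa cells.

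Cd74, H2-Aa, H2-Ab1 and H2-Eb1 were among the 20 most abundant transcripts of the Cd209a cells, ranked by their mean CPM over the libraries, and Cd74 was first. H2-Ab1 stood at 8609, 10720, 7215 and 9961 CPM and H2-Eb1 at 6228, 8353, 5526 and 8239 CPM. Both 5 dpw libraries were above both 1 dpw libraries, with log2 differences of 0.32 (0.23 to 0.40) and 0.42 (0.33 to 0.52) in Angptl4+/+ cells and 0.47 (0.38 to 0.56) and 0.58 (0.47 to 0.68) in Angptl4-/- cells. Among the sub-groups described below, H2-Ab1 stood at 5413 CPM in the second and at 9590 to 12604 CPM in the others. The second held 30%, 27.3%, 50% and 25% of the cells of the libraries, and its part in these differences was not tested. Ciita, the transactivator that switches the class II genes on, stood at 458, 471, 498 and 493 CPM, and its log2 difference between days was 0.04 (-0.32 to 0.42) and -0.02 (-0.37 to 0.35). At 5 dpw none of the 13 measured class II genes was past 2-fold between genotypes, where 1.77% of all genes were higher and 0.56% lower, and their median log2 ratio was -0.01, where that of all genes was 0.03. H2-Ab1 and H2-Eb1 differed there by -0.11 (-0.15 to -0.06) and -0.02 (-0.07 to 0.03). From 1 to 5 dpw the list's median was 0.25 over 12 genes in Angptl4+/+ cells with none past 2-fold (4.99% of all genes were higher), and 0.47 over 13 in Angptl4-/- cells with H2-DMb2, H2-Oa and H2-Ob past 2-fold upward (6.9% of all genes were). These 3 genes encode chains of the peptide-loading chaperones H2-M and H2-O and had 51.8, 51.8 and 6.47 CPM in the 10 Angptl4-/- cells at 1 dpw.

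Class II genes of the mouse lie together on chromosome 17, and the promoters of many carry a Y box, the last of a row of short elements through which Ciita acts. The motif CTGATTGG was searched on both strands in the 250 bases before each gene's start (RefSeq, GRCm38.p6). It was present in 1258 of 32851 promoters (3.83%) and in 3 of the 12 listed class II genes that had an entry (H2-Eb1, H2-Eb2 and H2-Oa), besides H2-Aa, which belongs to the rule. None of 10 type 2 and none of 9 conventional dendritic cell genes with an entry held it, and 1 of 22 C-type lectins did. The 150 bases before the start of 3 of these genes, each 5′ to 3′ on the gene's strand, are shown as the rule's own gene and members of the class II list that hold the motif, which is in capitals.
H2-Aa, chr17:34287824-34287973, minus strand: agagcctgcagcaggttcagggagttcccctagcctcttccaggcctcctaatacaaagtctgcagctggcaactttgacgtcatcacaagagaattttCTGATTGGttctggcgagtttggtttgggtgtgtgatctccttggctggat
H2-Eb1, chr17:34305717-34305866, plus strand: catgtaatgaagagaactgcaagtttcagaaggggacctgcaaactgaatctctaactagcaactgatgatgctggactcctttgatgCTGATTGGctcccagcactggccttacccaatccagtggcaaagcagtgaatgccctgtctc
H2-Oa, chr17:34092229-34092378, plus strand: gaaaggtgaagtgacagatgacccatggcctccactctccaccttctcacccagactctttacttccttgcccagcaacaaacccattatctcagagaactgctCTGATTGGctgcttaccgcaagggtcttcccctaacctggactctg
The motif lies 51 to 44 bases before the start in H2-Aa, 62 to 55 in H2-Eb1 and 46 to 39 in H2-Oa. A match of letters does not show that a factor binds there. Angptl4 itself (chr17:33773750-33781830, minus strand) is 475.859 kb from H2-Ab1, 500.914 kb from H2-Aa and 524.037 kb from H2-Eb1. Whether this distance bears on their levels in Angptl4-/- cells was not tested.

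Between genotypes at 5 dpw, where each side had over 50 cells, 79 of 4468 genes with at least 50 UMIs were past 2-fold higher in Angptl4-/- cells (1.77%) and 25 lower (0.56%). Without the 10 cells with plasmacytoid genes 61 of 4192 were higher, 56 of them among the 79, and 25 were lower, 19 of them among the 25. None of 11 conventional dendritic cell genes was past 2-fold, with a median log2 ratio of -0.10, nor any of 10 costimulation genes (-0.06), 13 MHC class I genes (-0.08) or 24 cytokine receptors (0.22). Of 15 type 2 genes Klrd1 and Ccl17 were lower, and Cd7 as well without the 10 cells, at -1.10.

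Klrd1 (chr6:129591782-129598775, plus strand) stood at 678, 629, 324 and 195 CPM, was seen in 10 of 10, 55 of 66, 8 of 10 and 29 of 56 cells, and both Angptl4-/- libraries were below both Angptl4+/+ libraries. The log2 ratio of Angptl4-/- to Angptl4+/+ was -1.07 at 1 dpw (-1.58 to -0.57) and -1.69 at 5 dpw (-1.95 to -1.44). Klrd1 was the only gene of 927 measured at both days that was past 2-fold the same way at both (0.108% lower, 0% higher). No gene was lower at both days when the rule asked for at least 1 or at least 3 UMIs of Cd209a, or with a minimum of 200 UMIs a gene. Of its UMIs in the 10 Angptl4+/+ cells at 1 dpw 37.1% were from a single cell, and without the top cell of each library the 1 dpw ratio was -0.77. At equal depth of 2000 UMIs a cell it was seen in 30%, 56.1%, 30% and 26.8% of cells, where at 1 dpw 3 of 10 cells held it in each genotype. Its ratio at 5 dpw in the cells with H2-Aa but no Cd209a was -1.34 (-1.66 to -1.04) and in monocytes -0.93 (-1.51 to -0.38), while in mature dendritic cells it was 0.56 (0.18 to 0.95). Klrk1, the receptor NKG2D, lies 11.548 kb away (chr6:129610323-129623864, minus strand) and stood at 213, 150, 116 and 57.2 CPM. The Angptl4-/- libraries were again the lower at each day, with ratios of -0.87 (-1.79 to -0.000113) at 1 dpw and -1.39 (-1.89 to -0.91) at 5 dpw. Klra17, a member of the Ly49 family 207.29 kb further on (chr6:129831154-129876672, minus strand), went the other way at 5 dpw, from 6.43 to 51.4 CPM (log2 3.00, 1.76 to 4.52), in 6 of 66 and 19 of 56 cells. It was 12.9 and 0 CPM at 1 dpw, where a floor of 3 UMIs in the 10 Angptl4-/- cells is 19.4 CPM. Klra17 was also higher at 5 dpw in Angptl4-/- cells of the C1q, mature, monocyte, H2-Aa and neutrophil classes, by 1.38 to 5.81. Hebp1, further along the same chromosome (chr6:135137522-135198022, minus strand), had 0, 3, 4 and 44 UMIs, too few for the 50-UMI minimum, at 0, 3.21, 25.9 and 51.4 CPM. It was higher in Angptl4-/- cells of those 5 classes too, by 2.57 to 5.10. The study named Hebp1 from these same samples, so its direction is not independent evidence. Whether the position of these genes bears on their levels was not tested.

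Ifi202b (chr1:173962568-173982744, minus strand), an interferon-activatable gene of the Ifi200 family, had 0 UMIs in the Cd209a cells of both Angptl4+/+ libraries. It stood at 110 CPM in Angptl4-/- cells at 1 dpw, 94.1% of it in 1 of the 2 cells that had it, and at 80.5 CPM (62.7 to 102) in 21 of 56 cells at 5 dpw. Against a floor of 3 UMIs in the Angptl4+/+ library this is 25.1-fold at 5 dpw. The lower bound of the counting interval, which uses the 0 UMIs seen in that library and not the floor, is 19.8-fold. It was at 0 at 5 dpw in Angptl4+/+ cells of each of the 5 other classes and at 8.42 to 134 CPM in their Angptl4-/- cells. The study picked this gene on these samples, so its direction is not independent evidence. None of the 10 other measured Ifi200 genes was past 2-fold, where 1.77% of all genes were higher and 0.56% lower, and their median was 0.03. None of the 10 cells with plasmacytoid genes held Ifi202b.

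Of the other higher genes, Emp1, a membrane protein gene of the PMP22 family, stood at 252, 97.5, 434 and 291 CPM and was above the same day's Angptl4+/+ library in both Angptl4-/- libraries (0.78, 0.19 to 1.39, and 1.58, 1.22 to 1.94). It was also higher at 5 dpw in monocytes, C1q cells, H2-Aa cells without Cd209a and neutrophils, by 0.94 to 1.58. Tppp3, a tubulin-binding protein gene, was at 45.0 and 163 CPM at 5 dpw (1.86, 1.35 to 2.39) in 21 and 26 cells, but at 258 and 188 CPM at 1 dpw, where 4 and 6 cells held it and a single cell gave 67.5% and 34.5% of its UMIs. Klf2, a transcription factor of quiescent and trafficking leukocytes, was at 168, 164, 207 and 418 CPM (1.35, 1.07 to 1.63 at 5 dpw, and 1.02 without the 10 cells with plasmacytoid genes). Crem, a cAMP-responsive transcription factor gene, was at 12.9 and 54.9 CPM in 9 and 21 cells (2.09, 1.16 to 3.14).

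Several of the largest ratios rested on few cells. Fn1, fibronectin, went from 216 to 719 CPM (log2 ratio 1.73, and 1.69 without the top cell of each library) with 14 and 15 cells holding it. A single Angptl4-/- cell gave 77.4% of the UMIs of the histone gene Hist1h2ae, 54.4% of those of thrombospondin, Thbs1, 59.1% of the neutrophil chemokine Cxcl2, and 66.3% of the interferon-induced Ifit1. Without the top cell of each library the ratio of Ifit1 went from 1.69 to 0.56. The others stayed past 2-fold, with Hist1h2ae going from 4.27 to 2.73, Thbs1 from 2.39 to 1.81 and Cxcl2 from 2.05 to 1.31. Slpi, a protease inhibitor gene, had a ratio of 2.39, and of 0.57 without the 10 cells with plasmacytoid genes. Past 2-fold were 12 of the 12 named higher genes with all cells and 11 without the top cells, and 8 of the 12 named lower genes in both cases.

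Among the lower genes at 5 dpw, Mgl2 (chr11:70130329-70137550, plus strand), the lectin CD301b, stood at 174, 736, 375 and 415 CPM. It was highest in Angptl4+/+ cells at 5 dpw, and the ratio there was -0.82 (-1.01 to -0.64), while the share of cells with it was alike at 48.5% and 48.2%. In the cells with H2-Aa but no Cd209a the ratio went the other way, 1.08 (0.71 to 1.46). Ddr1, a collagen receptor kinase, was at 142, 92.1, 58.2 and 38.5 CPM, with the Angptl4-/- library the lower at each day. At 1 dpw Ddr1 had too few UMIs for the minimum, so it was not among the genes compared there. Cd7, an immunoglobulin-family surface protein, was at 239, 234, 498 and 123 CPM and lower only at 5 dpw (-0.93, -1.28 to -0.59). Fabp5, a fatty acid carrier, was at 578 and 338 CPM at 5 dpw with 29.3% and 33.4% of its UMIs in a single cell. Ccl17, a chemokine for Ccr4-bearing T cells, was at 0 in both 1 dpw libraries and at 144 and 5.84 CPM at 5 dpw. It was seen in 8 of 66 and 2 of 56 cells, and 52.2% of the Angptl4+/+ UMIs were in 1 cell. Il4i1, an amino acid oxidase gene of activated dendritic cells, was likewise at 85.7 and 7 CPM at 5 dpw in 10 and 5 cells.

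**Figure D3:**
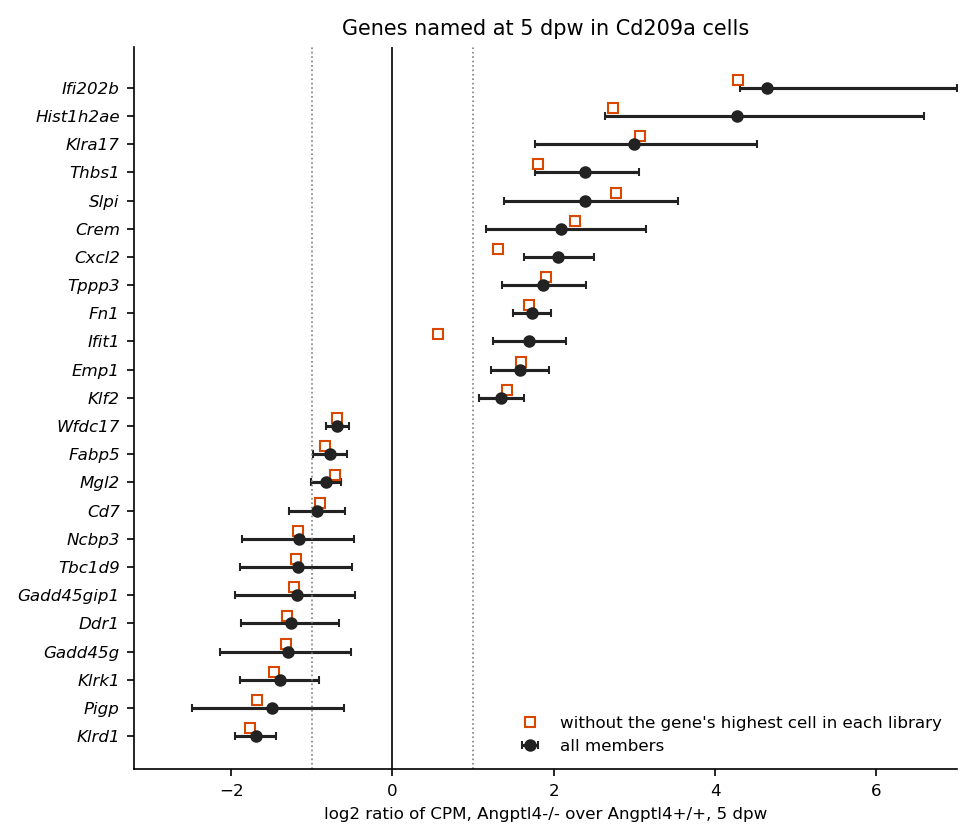
Log2 ratio of CPM, Angptl4-/- over Angptl4+/+ Cd209a cells at 5 dpw, for the 12 named genes in each direction, with filled circles and 95% counting intervals for all cells and open squares for the ratio without the cell with the most UMIs of the gene in each library. Dotted lines mark 2-fold, and the interval of Ifi202b, at 0 in Angptl4+/+ cells, has no upper end. Klrd1 lies at -1.69 and Emp1 at 1.58 with squares close to their circles, while Ifit1 moves from 1.69 to 0.56.

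For the counts by list at 5 dpw, the share of all genes past 2-fold was 1.77% higher and 0.56% lower. Of 26 interferon-induced genes 3 were higher (Isg15, Ifit1 and Cxcl10) and none lower, with a median of 0.38. Cxcl10 went from 33.2 to 333 CPM in 2 and 7 cells, 83.5% of it in a single Angptl4-/- cell. Of 8 chemokines Cxcl10 and Cxcl2 were higher and Ccl17 lower, with a median of 0.14. Of 5 cytokine genes Tnf and Il1rn were higher and none lower, with a median of 0.51. Tnf, tumour necrosis factor, went from 13.9 to 50.2 CPM in 9 and 17 cells, and Il1rn, the interleukin 1 receptor antagonist, from 18.2 to 42.0 CPM with 47.2% in a single Angptl4-/- cell. Of 15 migration and matrix genes 3 were higher, Mmp19 and Plaur among them, with a median of 0.50, and of 9 monocyte genes 2, Fn1 among them, with a median of 0.33. Without the 10 cells with plasmacytoid genes 2 of 15 and 1 of 9 were higher, and the medians were 0.52 and 0.07. Of 6 macrophage genes 1 was higher and 1 lower with all cells, with a median of 0.50. Of 37 transcription factors of dendritic cells Irf8, Klf2 and Cebpb were higher with a median of 0.05. Cebpb stood at 98.5 and 221 CPM (1.16, 0.80 to 1.54). The 7 measured genes of the plasmacytoid list had a median of 1.52 with Siglech, Ly6d, Ccr9 and Cox6a2 higher, and the median was -0.457 without the 10 cells that hold these genes, over the 2 genes that were then left with 50 UMIs. Irf8 stood at 162 and 361 CPM (1.16, and 0.35 without the 10 cells), and the 10 cells held most of its UMIs, 318 against 160 in the other 132 cells over all libraries.

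At 1 dpw, with 10 cells a side, 927 genes could be compared between genotypes, 15 higher in Angptl4-/- cells (1.62%) and 27 lower (2.91%). Of 11 cytokine receptors 3 were lower and none higher with a median of -0.10, and 1 of 3 cytokine genes and 1 of 4 chemokines were lower too. Il1r2, the decoy receptor for interleukin 1, stood at 568, 202, 123 and 243 CPM, highest in Angptl4+/+ cells at 1 dpw (-2.21, -3.01 to -1.48), where a single cell gave 42.0%. The cytokine Osm was at 271, 71.8, 51.8 and 39.7 CPM (-2.39, -3.69 to -1.28) in 7 and 4 cells. Csf2rb, the beta chain of the GM-CSF receptor, was at 645, 311, 239 and 417 CPM (-1.43, -2.02 to -0.87). For these 3 genes the Angptl4+/+ library at 1 dpw was the highest of the 4, so that the same 10 cells also set the ratio between days. Of 7 interferon-induced genes 3 were lower, Cxcl10 and Oasl2 among them, with a median of -0.60, which was 0.97 when the rule asked for at least 1 UMI of Cd209a. Higher in Angptl4-/- cells were the immediate early gene Jun at 381 and 1087 CPM (1.51, 1.08 to 1.97), Cd14 at 96.8 and 291 (51.1% in a single cell), the transcription regulators Cbfa2t3, at 213 and 576 (1.44, 0.84 to 2.06), and Bcl11a, at 116 and 324 (1.48, 0.68 to 2.34), and Ccr2 at 826 and 1501 (0.86, 0.54 to 1.18). Jun is 1 of 20 genes listed for the stress of tissue dissociation, which summed to 10074, 9836, 12670 and 10250 CPM, highest in the Angptl4-/- library at 1 dpw, with 2, 0, 1 and 1 of them at 0. The most abundant were Junb at 1471, Hspa8 at 1547, and Fos at 1825 and 1600 CPM in these libraries in turn. Of the 14 measured between genotypes at 1 dpw 1 was higher and none lower, with a median of 0.32, and the part of handling in these ratios was not tested.

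From 1 to 5 dpw, 155 of 3105 genes were past 2-fold higher in Angptl4+/+ cells (4.99%) and 163 lower (5.25%), and in Angptl4-/- cells 205 of 2971 were higher (6.9%) and 71 lower (2.39%). These ratios share their libraries with the genotype ratios above. Past 2-fold the same way in both genotypes were 25 of 2769 genes upward (0.903%) and 11 downward (0.397%), so that these do not rest on the 10 cells of a single 1 dpw library. Without the 10 cells with plasmacytoid genes 141 of 2972 were higher and 144 lower in Angptl4+/+ cells, 177 of 2769 higher and 73 lower in Angptl4-/- cells, and 20 of 2621 higher and 12 lower in both.

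Among the genes upward in both, Aif1, a calcium-binding protein gene of myeloid cells, went from 12.9 to 130 CPM in Angptl4+/+ cells (3.33, 1.44 to 6.39) and from 12.9 to 88.7 in Angptl4-/- cells (2.78, 0.87 to 5.85), in 2 of 10, 40 of 66, 2 of 10 and 27 of 56 cells. The Fc receptor gene Fcgr3 went from 19.4 to 67.5 CPM (1.80, 0.19 to 4.12) and from 19.4 to 141 CPM (2.86, 1.28 to 5.16). Its 1 dpw levels equal the floor of 3 UMIs, in 1 Angptl4+/+ and 2 Angptl4-/- cells. The nonclassical class I gene H2-Q7 went from 38.7 to 127 and from 38.8 to 186 (1.72, 0.55 to 3.19, and 2.26, 1.10 to 3.72). At 1 dpw 3 Angptl4+/+ and 2 Angptl4-/- cells held H2-Q7. Without the 10 cells with plasmacytoid genes its ratios were 1.53 and 1.65. Siglech, counted among the 25, went from 0 to 58.9 and from 12.9 to 251 CPM, but without those cells it had 0, 5, 2 and 0 UMIs in the 4 libraries. Fabp5 was at 142, 578, 104 and 338 CPM. Lipoprotein lipase, Lpl, was at 0, 117, 6.47 and 166 CPM in 0, 9, 1 and 8 cells, and Apoe at 6.45, 53.6, 6.47 and 103 in 1, 20, 1 and 12. Retnla was found in 2 cells of each 5 dpw library with 97.4% and 98.5% of its UMIs in 1 of them.

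Downward in both were the chemokine Ccl4, at 490, 84.6, 641 and 99.2 CPM (-2.54, -3.01 to -2.06, and -2.69, -3.13 to -2.26), though a single Angptl4+/+ cell gave 86.8% of its UMIs at 1 dpw, the membrane protein gene Ifitm6, at 407, 146, 608 and 162, and the integrin gene Itga4, at 219, 76.1, 278 and 131. Each was higher in both 1 dpw libraries than in either 5 dpw library. S100a8 was at 148, 41.8, 155 and 46.7 CPM. It is a neutrophil gene, and in the neutrophil class of the same libraries it stood at 74308, 37229, 87795 and 42768 CPM and those cells made up 44.3%, 35.0%, 47.1% and 49.5% of the passing cells. The part of free neutrophil RNA in the S100a8 of Cd209a cells was not tested.

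**Figure D4:**
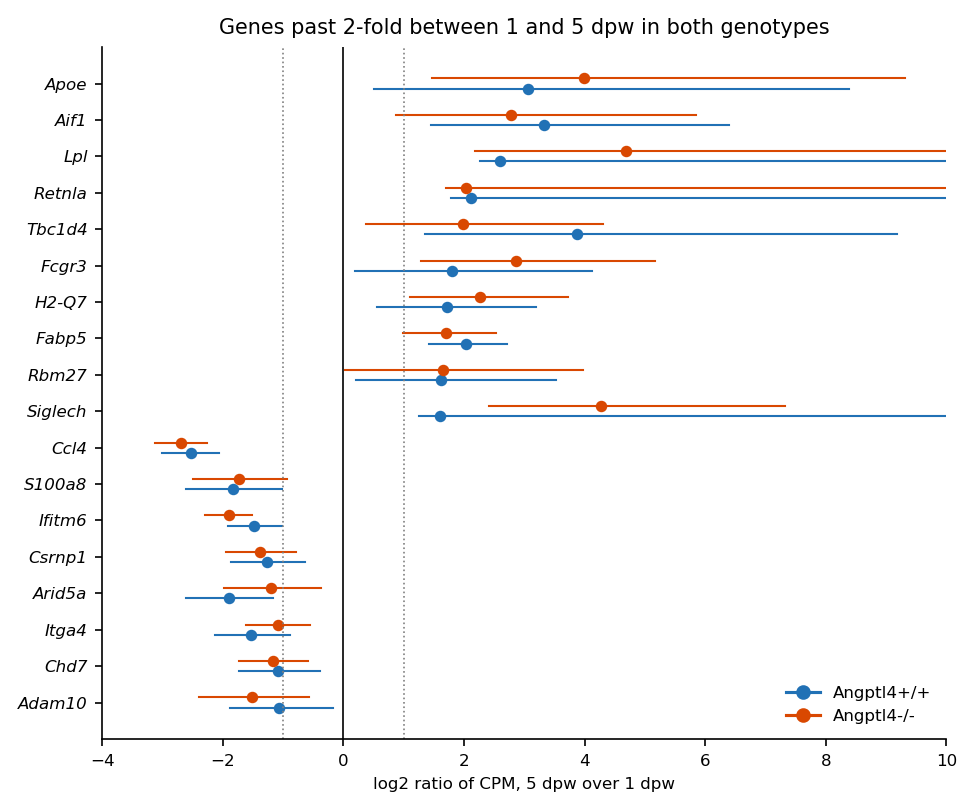
Log2 ratio of CPM, 5 dpw over 1 dpw, in Cd209a cells of each genotype, for 10 named genes that were higher and 8 that were lower past 2-fold in both, with 95% counting intervals cut at 10. The intervals are wide because each 1 dpw library has 10 cells, and those of the higher genes are the wider, the ratios of Siglech rest on the 10 cells with plasmacytoid genes, and Ccl4 lies at -2.54 and -2.69.

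Other time differences were past 2-fold in 1 genotype, and whether they differ between genotypes was not tested. In Angptl4+/+ cells 5 of 13 glycolysis and hypoxia genes were lower at 5 dpw with a median of -0.73 (Slc2a1, Hk2, Pgam1, Ero1l and Slc16a3), as were 6 of 24 interferon-induced genes with a median of -0.83 (5 without the 10 cells with plasmacytoid genes), where all genes had a median of -0.10 and 5.25% of them were lower. In Angptl4-/- cells 1 of 12 and 3 of 25 genes of these lists were higher and none lower, where 6.9% of all genes were higher, and the medians were 0.05 and 0.24. The latter was -0.35 with at least 1 UMI of Cd209a in the rule. The glucose transporter Slc2a1 was at 161, 37.5, 45.3 and 45.5 CPM and placental growth factor, Pgf, at 245, 23.6, 58.2 and 24.5, both highest in Angptl4+/+ cells at 1 dpw. In that library 7 and 4 of the 10 cells held them, and a single cell gave 32% and 50% of their UMIs. In Angptl4+/+ cells the lectin genes Mgl2 (2.08, 1.52 to 2.69) and Clec4b1, from 0 to 114 CPM in 0 and 19 cells, were higher at 5 dpw. Over all libraries most UMIs of both were in the third sub-group described below. Clec4b1 had 176 there against 15, 23 and 9 in the other sub-groups, and Mgl2 722 against 273, 27 and 106. That sub-group held 0 of 10 Angptl4+/+ cells at 1 dpw and 11 of 66 at 5 dpw, and its part in these ratios was not tested. In Angptl4-/- cells the cathepsin gene Ctsl went from 19.4 to 224 CPM (3.53, and 1.97 without the 10 cells with plasmacytoid genes), the interleukin 7 receptor gene Il7r from 0 to 173, in 0 and 30 cells, and Fn1 from 19.4 to 719, while Ccl3 went from 226 to 38.5 and Cd7 from 498 to 123. At 1 dpw Ctsl and Fn1 were at the floor of 3 UMIs, in 2 cells each. Ccl3 was in 6 cells there, with 51.4% of its UMIs in a single cell. The 4 higher plasmacytoid genes gave their list a median of 2.32 in Angptl4-/- cells, which was -0.903 without the 10 cells that hold them, over 2 genes.

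Among themselves the 142 cells fell into 4 sub-groups of 64, 40, 23 and 15 cells when clustered without the genes of the rule. Their leading genes describe the clustering and are not results. Interferon-induced genes led the largest (Cxcl10, Rsad2, Ifit1, Ifit2 and Ifit3, with Pgf, Prnp and Ifitm1), in which Klrd1 stood at 623 CPM and Ly6c2 at 42.6. The second was led by Siglech, Ccr9, Cox6a2 and Ly6d and held all 10 cells with plasmacytoid genes, but its other 30 cells made it a mixture, with Ly6c2 in 72.5% and Cd7 in 85% of its cells. Lpl, Retnla, Fcrls, F10, Ear2 and Fn1 led the third, which had the most Mgl2 (1573 CPM, in 82.6% of cells), the least Flt3 (in 26.1% of cells), Lyz2 at 3705 CPM and the highest median depth, 19614 UMIs against 12604.5 to 14050 in the others. The fourth was led by Spp1, Apoe, Cd72, Ly6a and Cx3cr1, with Fcgr1 in all 15 cells. Mgl2 and Ly6c2 tended to sit in different cells, as Ly6c2 was seen in 16.7% of cells with Mgl2 and in 44.7% of cells without it over the 4 libraries. By library Ly6c2 was seen in 20%, 21.9%, 0% and 11.1% of cells with Mgl2 and in 40%, 41.2%, 75% and 41.4% without it. The 10 cells with plasmacytoid genes, which were high in Ly6c2, are counted here, and their part in this was not tested.

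At 5 dpw the sub-groups had close shares in the genotypes, with 45.5% and 42.9% of cells in the first sub-group, 27.3% and 25% in the second, 16.7% and 17.9% in the third and 10.6% and 14.3% in the fourth, and all intervals overlapped. At 1 dpw 7 of 10 Angptl4+/+ and 3 of 10 Angptl4-/- cells were in the first (34.8 to 93.3% and 6.67 to 65.2%). The second held 3 and 5 of 10, the third 0 and 2 of 10, and none of the 20 cells was in the fourth. The boundaries moved with the settings. A lower resolution gave 3 groups and a higher one 8, with adjusted Rand indices of 0.579 and 0.429 to these 4, and thinning all cells to 2000 UMIs gave 3 groups and an index of 0.413.

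**Figure D5:**
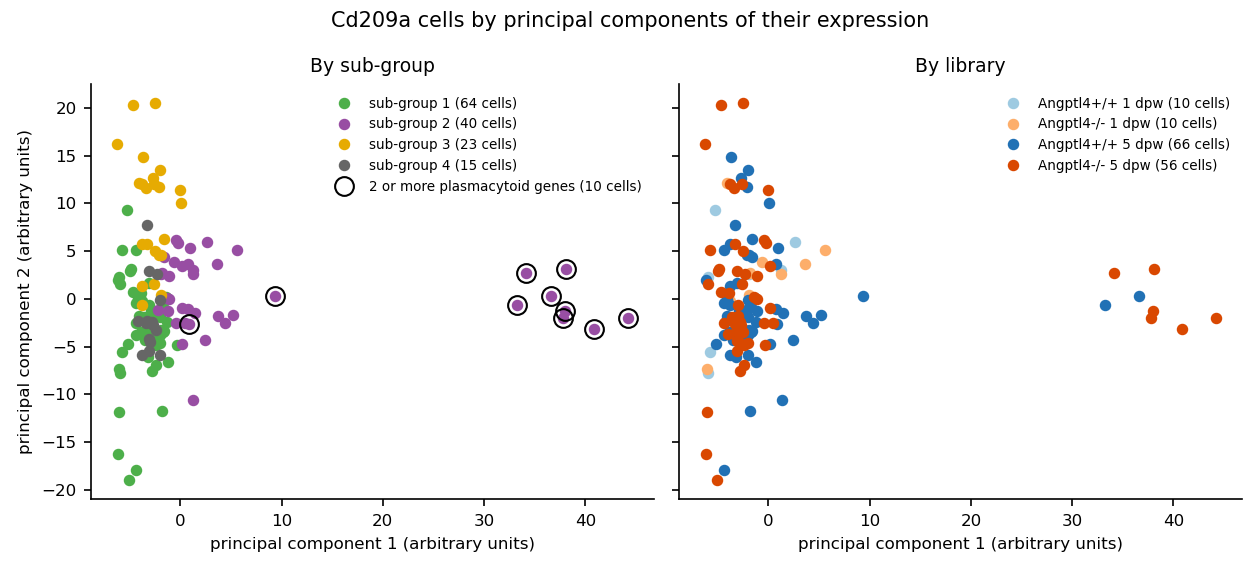
Cd209a cells by the first 2 principal components of their expression (arbitrary units), coloured by sub-group on the left, with rings around the 10 cells that hold at least 2 plasmacytoid genes, and by library on the right. Along component 1, 8 ringed cells, all of 5 dpw, lie between 33.2 and 44.2, and the 132 cells without rings lie between -6.27 and 5.61.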

How the data were processed

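Live CD45+ cells of 4 wound samples, 1 for each genotype and day, were sequenced with the 10x Chromium Single Cell 3′ V3 kit. Per the submitters' processing notes and the methods, the authors made the deposited counts with Cell Ranger 3.1.0 on mm10 and worked in Seurat 3.0. The deposited matrices hold whole-number counts of UMIs, with intronic counting and removal of free RNA not given in the sources used here, and cover 31053 genes.

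From these counts, cells were kept with at least 200 genes and at most 10% mitochondrial UMIs. UMIs were summed over the Cd209a cells of each library and given as CPM. A gene was counted as different past 2-fold with at least 50 UMIs, and a library at 0 was set to a floor of 3 UMIs per library. With 1 library in each group no test was run, and no count model was fitted. Shares have exact Clopper-Pearson intervals, their differences Newcombe intervals, CPM exact Poisson intervals and ratios exact conditional binomial intervals, all at 95% and for counting error only. Named genes were, in each comparison, the 12 highest and 12 lowest by the interval bound nearest 0 among genes seen in at least 20% of the cells on the higher side (10 for comparisons with other classes and for genes past 2-fold in both contrasts), besides genes of fixed lists and the 20 most abundant. Some genes that met these rules are not reported here. The cells and lists were chosen with earlier results of these data known. Sub-groups came from 1000 variable genes, 15 principal components and Leiden clustering at resolution 0.5. The automatic threshold of the doublet caller Scrublet marked 0, 3, 3 and 0 cells and was judged not to have worked, so the cells with the highest scores were left out as an alternative, and doublets were kept otherwise. Python 3.11.15, scanpy 1.11.5, numpy 2.4.6, scipy 1.17.1, statsmodels 0.14.6 and leidenalg 0.10.2 were used, and the counting steps were tested on simulated data. Positions are from the mm10 annotation (GENCODE vM21) and promoters from RefSeq. Alternatives varied the scaling, the minimum UMIs, the rule's thresholds, doublets, depth and clustering.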

Additional observations from a re-analysis of the deposited data

Results flagged for a closer look

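For 7 named genes the ratio of Angptl4-/- to Angptl4+/+ Cd209a cells had opposite signs at 1 and 5 dpw, with 1 library on each side. The difference between days was not tested. On the log2 scale Cd7 was 1.06 at 1 dpw and -0.93 at 5 dpw, Jun was 1.51 and -0.30, Psmb10, an immunoproteasome subunit gene, was 1.34 and -0.39, and Wfdc17 was 0.79 and -0.68. In the other direction Csf2rb was -1.43 and 0.42. Mgl2 was 1.11 and -0.82, but only 2 of the 10 Angptl4-/- cells held it at 1 dpw and 86.2% of its UMIs were from 1 of them. Cxcl10 was -1.74 and 3.32 and was seen in 2, 2, 1 and 7 cells.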

How the results depend on the processing

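No paired analysis was possible because each genotype and time point had 1 library. Leaving out a replicate was likewise not possible, and the intervals cover counting error, so differences between animals, colonies or sorts cannot be told apart from those between genotypes or days. Levels at 1 dpw rest on 10 cells a library. Alternatives that widen the neutrophil class or leave out the 10 cells with plasmacytoid genes, the top cell of each gene, or the cells with the highest doublet scores were chosen after seeing the data.

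The larger share at 5 dpw kept its direction under every alternative run. Thinned to 2000 UMIs, the shares at 1 dpw were 0.0987% (Angptl4+/+) and 0.0891% (Angptl4-/-). Outside the neutrophil class the shares were 2.05% (Angptl4+/+, 5 dpw), 0.394% (Angptl4-/-, 1 dpw) and 2.34% (Angptl4-/-, 5 dpw), and 5 dpw minus 1 dpw was 1.72 points in Angptl4+/+ and 1.95 in Angptl4-/- wounds. Outside the wider class they were 0.499%, 2.70%, 0.602% and 3.33%, with differences of 2.20 and 2.73 points between days and 0.634 between genotypes at 5 dpw, against -0.153 over all passing cells.

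With a minimum of 20 UMIs the counts of genes past 2-fold were 119 higher and 174 lower between genotypes at 1 dpw, 269 and 129 at 5 dpw, 481 and 471 from 1 to 5 dpw in Angptl4+/+, 578 and 306 in Angptl4-/-, 4 and 2 at both days between genotypes, and 75 and 43 between days in both genotypes. With 200 UMIs they were 1 and 0, 13 and 1, 13 and 8, 26 and 5, 0 lower at both days, and 5 and 0. Median-of-ratios size factors gave 9 higher between genotypes at 1 dpw and 45 lower between days in Angptl4-/-. The mean of per-cell CPM gave 43 lower between genotypes at 1 dpw and 3 lower at both days, and leaving out top cells gave 52 lower at 1 dpw. For the genotype ratio at both days, where Klrd1 was the only gene, leaving out doublets or requiring a C1q sum of 0 added 1 higher gene, at least 3 Cd209a UMIs gave 1 higher and 0 lower, and at least 1 Cd209a UMI gave 5 higher and 0 lower, with 31 higher at 1 dpw. Klrd1 thus missed the 2-fold line on at least 1 day under both of these Cd209a thresholds, and at 1 dpw without its top cell. Which genes were called also changed. Leaving out the 10% of members with the most UMIs kept 45.1 to 62.0% of the genes called in each comparison and direction, at least 1 Cd209a UMI kept 37.0 to 80% and at least 3 kept 56 to 85.2%.

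Against other classes a minimum of 200 UMIs gave 77 higher (C1q), 340 (Ccr7 Fscn1), 82 (Ly6c2 Plac8) and 27 (H2-Aa without Cd209a). Thinning to 2000 UMIs, which leaves fewer genes with enough UMIs, gave 38 higher and 68 lower, 125 and 113, 87 and 81, and 22 and 46. A Leiden resolution of 1.0 gave 8 sub-groups. Without the 10 cells, which were picked for holding plasmacytoid genes, 2 genes of that list had enough UMIs, where 7 had between genotypes at 5 dpw, 7 between days in Angptl4-/- cells and 4 in Angptl4+/+ cells. The medians, at -0.457, -0.903 and -0.137, are thus of fewer genes and not a reversal of the same list. Of 497 list medians compared under alternatives 43 changed sign, among them the interferon-induced list between genotypes at 1 dpw, from -0.60 to 0.97 with at least 1 Cd209a UMI.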

Other observations

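Some single genes of costimulation, cytokines and other groups were not described above. Cd86, a ligand of CD28, stood at 168, 273, 233 and 217 CPM in Angptl4+/+ cells at 1 and 5 dpw and Angptl4-/- cells at 1 and 5 dpw, and Cd83 at 136, 110, 162 and 110. The interleukin 1 beta gene Il1b stood at 1910, 1152, 1255 and 1137 CPM, highest in Angptl4+/+ cells at 1 dpw, and Il12b, a subunit gene of interleukins 12 and 23, had 0 UMIs in all 142 cells. Cdh1, the E-cadherin gene that also marks Langerhans cells, stood at 96.8, 152, 19.4 and 127 CPM. Cells with at least 5 UMIs over 14 genes of the cell cycle numbered 1, 0, 0 and 3.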
